A study of Mus musculus with 8 samples.

Results

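The 9 genes described here encode the main parts of the renin-angiotensin system as they are transcribed in the kidney: Ren1, Agt, Ace, Enpep, Mme, Agtr1a, Agtr1b, Mas1 and Atp6ap2. They were chosen by symbol, each matched 1 identifier among the 42256 in the deposited table, and 7 of the 9 passed the filter on low counts. Agtr1b and Mas1 did not pass it. The genes were measured by RNA sequencing in whole kidneys of 8 adult male mice, 4 labelled CDH11+/+ and 4 labelled CDH11-/-, whose strain is given as mixed, 129S1/Sv x C57BL/6. Both groups had the same injury: aristolochic acid, a plant toxin that damages the proximal tubule, at 3 mg/kg on 5 consecutive days, with kidneys taken 2 weeks after the last dose. The libraries held no uninjured kidney, so levels are those of injured tissue. Unx/AngII, the injury in the series title (AngII is the peptide this system makes), appears in none of the groups as labelled, and the labels were followed.

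The renin-angiotensin system is a chain of secreted and membrane-bound proteins that sets blood pressure and salt balance. Renin, released by granular cells of the afferent arteriole, cuts angiotensinogen to angiotensin I, and angiotensin-converting enzyme on endothelium and on the brush border of the proximal tubule makes angiotensin II from it. Angiotensin II acts mainly through the type 1 receptor, while neprilysin, aminopeptidase A and other peptidases turn the peptides into forms that act elsewhere or not at all. The kidney holds the whole chain, with renin in the juxtaglomerular apparatus and most of the angiotensinogen, converting enzyme and peptidases in the proximal tubule.

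Libraries held 10675309 to 18539479 counts. Kidney markers were present in every library, with the endocytic receptor gene Lrp2 of the proximal tubule at 149.6 to 453.3 CPM (read counts scaled to the effective depth of each library) and the podocyte gene Nphs1 at 19.2 to 37 CPM. Cdh11, the targeted gene, was at 58 to 75.6 CPM in the libraries labelled CDH11+/+ and at 89.9 to 117.2 CPM in those labelled CDH11-/-, without overlap. Its level in CPM was thus higher, not lower, in the libraries labelled CDH11-/- (log2 fold change 0.69 ± 0.11, SE, adjusted p = 0.0243 in edgeR). In the authors' normalized values the labels overlapped, at 812.1 to 1366.8 for CDH11+/+ and 1083.8 to 1372.2 for CDH11-/-. Their means there were 1035.6 and 1222.3. Genotypes are therefore given as labelled throughout, and each comparison is one between labels. CDH11+/+ replicate 1 stood apart from the other libraries of its label in tubule genes: the summed level of 16 proximal tubule markers was 2754.9 CPM there and 5611.5 to 8158.1 CPM in replicates 2 to 4. Those libraries labelled CDH11-/- lay between 2316.3 and 6127.9 CPM. CDH11-/- replicate 2 carried hepatocyte transcripts, with Alb at 294.9 CPM there and at 0.604 to 20.4 CPM in the other libraries.

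The stretches before the transcription starts of 5 members are shown because these genes cover the range of behaviour described below, from Ace and Agt, which differed most between mice, to Atp6ap2, which differed least. Each line gives the 80 bases upstream of the RefSeq start on GRCm38.p6, read 5′ to 3′ on the gene's strand, with TATAAA or its reverse complement TTTATA in capitals.
Ren1 (chr1:133350594-133350673, plus strand): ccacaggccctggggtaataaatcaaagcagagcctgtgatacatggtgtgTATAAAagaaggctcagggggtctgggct
Agt (chr8:124569707-124569786, minus strand): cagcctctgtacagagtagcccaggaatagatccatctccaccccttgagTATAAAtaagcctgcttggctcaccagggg
Ace, first start (chr11:105967868-105967947, plus strand): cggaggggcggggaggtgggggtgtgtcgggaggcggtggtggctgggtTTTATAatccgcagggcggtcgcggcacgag
Enpep (chr3:129332750-129332829, minus strand): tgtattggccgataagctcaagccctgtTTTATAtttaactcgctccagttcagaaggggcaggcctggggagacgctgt
Atp6ap2 (chrX:12587679-12587758, plus strand): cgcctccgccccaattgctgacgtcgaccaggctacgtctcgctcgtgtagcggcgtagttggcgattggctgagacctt

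In these windows, counting the base before the start as −1, TATAAA began at −29 in Ren1 and at −30 in Agt. Agtr1b had the same letters at −31. TTTATA began at −31 in Ace and at −52 in Enpep, and Atp6ap2 held neither. Over all 32851 start sites of the same table, 3.37% had TATAAA in the 80 bases and 1.77% had TTTATA. Of the 9 genes 8 had an entry there, with 11 start sites in all (2 for Ace, 3 for Mme). The windows of Mas1, of Mme and of the second Ace start held neither hexamer. A match describes the letters alone. The Ren1 window lies inside the longer GENCODE model of that gene, which starts further upstream.

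Levels between genes were compared per kilobase of annotated exon. Agt stood first at 43.4 ± 13.8 CPM per kilobase (SD over the 8 libraries), followed by Atp6ap2 at 43.3 ± 2.45. These neighbours did not differ beyond their spread, Agt being the higher in 5 of 8 libraries. Ren1 followed at 27.2 ± 7.22 CPM per kilobase, and was below Atp6ap2 in 7 of 8 libraries. Mme at 16.7 ± 3.21 and Enpep at 16.2 ± 2.79 did not differ beyond their spread. Ace at 8.3 ± 4.02 and Agtr1a at 7.62 ± 0.703 came next, with overlapping ranges, and could not be ordered. Mas1 and Agtr1b lay far below, at 0.16 and 0.0204 CPM per kilobase. The annotated exons of Mme add up to 11542 bases over several transcript forms, so its value per kilobase is a low estimate for any shorter form.

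The comparison asked whether any gene of the system differed between the labelled genotypes in the injured kidney. In edgeR's quasi-likelihood test 0 of the 7 tested members passed a Benjamini-Hochberg adjusted p of 0.05, where 0.719% of 15852 genes did. At an unadjusted p under 0.05 there was 1 of 7, Enpep, beside 14.1% of all tested genes. DESeq2 and limma-voom also called 0 of the members, where they called 515 and 679 genes over all. With 1 surrogate variable in the model 1 was called, Agt, where 4.81% of all genes were. The median log2 fold change of the 7 (libraries labelled CDH11-/- over those labelled CDH11+/+) was −0.05, beside −0.01 for all tested genes. Of the 7, 2 were positive and 5 negative, or 3 and 4 with library size as the only scaling. The 4 libraries of each label overlapped in each of the 7, while over all tested genes 7.33% did not overlap.

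**Figure D1:**
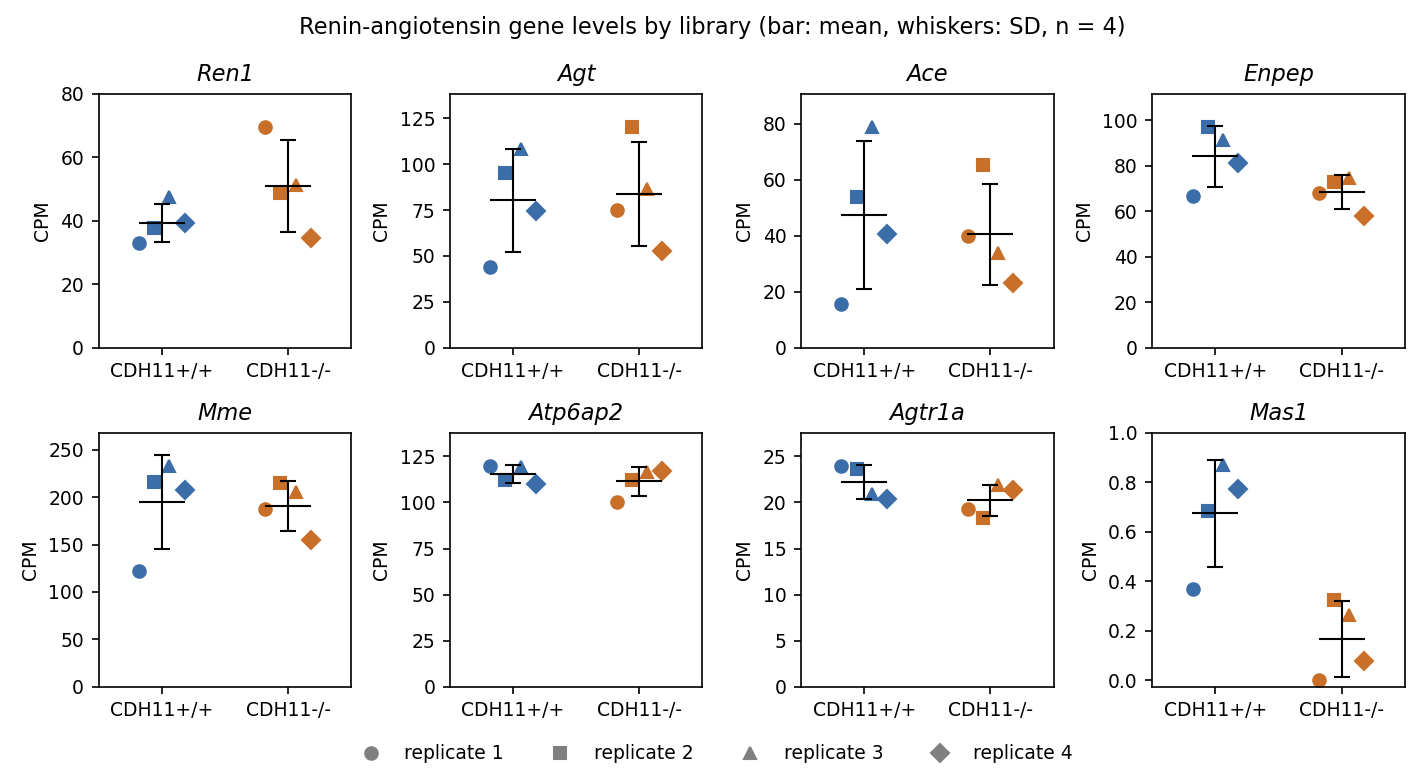
Level of 8 genes in CPM (vertical axis from 0; the Mas1 panel starts just below 0 to show a library at 0), with 1 symbol per library, a bar at the mean and whiskers of 1 SD, n = 4 per label. Circles, squares, triangles and diamonds are replicates 1 to 4; the labels overlap in all panels but that of Mas1, where the libraries labelled CDH11+/+ lie between 0.369 and 0.87 CPM and the others between 0 and 0.323.

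Ren1 (ENSMUSG00000070645, chromosome 1, 133350510 to 133360325) encodes renin, the protease whose release limits the rate of the whole chain. Its level was 32.9, 37.6, 47.3 and 39.4 CPM in replicates 1 to 4 labelled CDH11+/+, and 69.6, 48.6, 51.2 and 34.5 CPM in those labelled CDH11-/-. Of the libraries labelled CDH11-/-, 3 lay above every library labelled CDH11+/+, and replicate 4 lay near the bottom of the range. Mean levels of 39.3 ± 5.99 against 51 ± 14.4 CPM (n = 4 each, SD) differed by 0.37 ± 0.20 on the log2 scale (SE, adjusted p = 0.458 in edgeR). The 95% interval of the fold ran from 0.936 to 1.79. The value rests in part on CDH11-/- replicate 1: without it the log2 fold change was 0.20, and without CDH11-/- replicate 4 it was 0.53. Mice of 129 strains carry a near-identical second renin gene, Ren2, that the C57BL/6 reference genome lacks, so reads of the second copy, where a mouse had it, would be counted under Ren1.

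Akr1b7, an aldo-keto reductase made together with renin in juxtaglomerular cells, was at 1.75 to 2.95 CPM in the libraries labelled CDH11+/+. In those labelled CDH11-/- it was 5.17, 1.94, 3.48 and 1.97 CPM in replicates 1 to 4, with a log2 fold change of 0.34 ± 0.33 (SE, adjusted p = 0.7 in edgeR). CDH11-/- replicate 1 was the highest library for both Ren1 and Akr1b7, and without it the log2 fold change of Akr1b7 was 0.01. Ptgs2, the cyclooxygenase of the macula densa that drives renin release, was at 1.19 to 5.35 CPM and 2.91 to 5.24 CPM (log2 fold change 0.37 ± 0.38, SE, adjusted p = 0.72 in edgeR). That value was 0.10 without CDH11+/+ replicate 3 and 0.79 without CDH11+/+ replicate 1.

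Of 23 listed genes of renin cells and renin release, 23 were tested, 19 had positive and 4 negative values, and the median log2 fold change was 0.09. With library size as the only scaling 20 were positive, the median was 0.13, and that of all genes was 0.04. In edgeR 1 of the 23 passed, beside 0.719% of all tested genes, and 3 had an unadjusted p under 0.05, beside 14.1%. The labels did not overlap in 2 of the 23, beside 7.33% of all tested genes. Slc12a2, the sodium-potassium-chloride carrier NKCC1, which juxtaglomerular cells and many other cells express, was the 1 gene of the list past the threshold. It was at 53.1, 48.9, 51.9 and 48.9 CPM in the libraries labelled CDH11+/+ and at 62.7, 71.1, 59 and 70.9 CPM in those labelled CDH11-/-, without overlap. It rose by 0.38 ± 0.07 (log2, SE, adjusted p = 0.0476 in edgeR). That call ended in 9 of 18 alternatives, among them without CDH11+/+ replicate 4 (log2 fold change 0.36, adjusted p = 0.169), and the adjusted p ranged from 0.00152 to 0.169. Vdr, the vitamin D receptor, which represses renin transcription, was at 127.7 to 181.5 CPM against 113.7 to 135.4 CPM (log2 fold change −0.42 ± 0.11, SE, adjusted p = 0.116 in edgeR). It passed in 4 of 18 alternatives: DESeq2 (adjusted p = 0.0214), limma-voom (0.0108), 1 surrogate variable (0.00172) and without CDH11+/+ replicate 1 (0.00252). The summed level of 10 markers of vascular smooth muscle and mesangial cells, which share a lineage with renin cells, ran from 570.2 to 808.1 CPM and from 675.2 to 869.2 CPM. Of these 10 markers 9 were positive (median 0.39 on the log2 scale), and their part in the values of renin cell genes was not tested.

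Agt (ENSMUSG00000031980, chromosome 8, 124556534 to 124569706, minus strand) encodes angiotensinogen, the substrate of renin, which the liver secretes and the proximal tubule also makes. Its level was 43.9, 95.4, 108.2 and 74.4 CPM in the libraries labelled CDH11+/+ and 75.2, 120.5, 86.3 and 52.5 CPM in those labelled CDH11-/-. Both labels covered nearly the same range, and the lowest library was CDH11+/+ replicate 1. Mean levels of 80.5 ± 28.1 against 83.6 ± 28.3 CPM (n = 4 each, SD) differed by 0.05 ± 0.35 on the log2 scale (SE, adjusted p = 0.963 in edgeR), with a 95% interval of the fold from 0.585 to 1.84. The highest Agt library, CDH11-/- replicate 2, was also the one with hepatocyte transcripts, whose 7 markers summed to 533.6 CPM there and to 22.3 to 64.3 CPM elsewhere. Of these markers 6 were tested between labels, 4 with positive and 2 with negative values, and 0 passed in edgeR. Ace at 65.3 CPM and Mme at 215.4 CPM were also highest of their label in CDH11-/- replicate 2. Without that library the log2 fold change of Agt was −0.17, and without CDH11+/+ replicate 1 it was −0.14. In bulk tissue, fewer cells of a type and less RNA per cell cannot be told apart.

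Ace (ENSMUSG00000020681, chromosome 11, 105967945 to 105989964) encodes angiotensin-converting enzyme and varied more between mice than any other of the 7 tested members. It was at 15.6, 54, 79 and 40.6 CPM in replicates 1 to 4 labelled CDH11+/+, and at 39.9, 65.3, 33.7 and 23 CPM in those labelled CDH11-/-. The highest library was 5.07 times the lowest, and both of these carried the label CDH11+/+. Mean levels of 47.3 ± 26.5 against 40.5 ± 18 CPM (n = 4 each, SD) differed by −0.23 ± 0.53 on the log2 scale (SE, adjusted p = 0.89 in edgeR), with a 95% interval of the fold from 0.354 to 2.06. The direction was not fixed: without CDH11+/+ replicate 3 the value was 0.13, and with 1 surrogate variable in the model it was 0.22. An antisense model, Gm11651, shares 295 exon bases with Ace and had 0 counts.

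Enpep (ENSMUSG00000028024, chromosome 3, 129269175 to 129332720, minus strand) encodes aminopeptidase A, which removes the first residue of angiotensin II to give angiotensin III. Its level was 66.5, 97.2, 91.2 and 81.4 CPM in the libraries labelled CDH11+/+, and 67.9, 73, 74.7 and 57.9 CPM in those labelled CDH11-/-. Replicates 2 to 4 labelled CDH11+/+ lay above every library of the other label, and replicate 1 lay among them. Mean levels of 84.1 ± 13.4 against 68.4 ± 7.57 CPM (n = 4 each, SD) differed by −0.30 ± 0.12 on the log2 scale (SE, adjusted p = 0.299 in edgeR). The interval of the fold, 0.677 to 0.977, was the only one among the 7 that did not include 1 before adjustment. Without CDH11+/+ replicate 1 Enpep was called lower (log2 fold change −0.38, edgeR adjusted p = 0.0325), in a fit that called 6.25% of all genes.

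Mme (ENSMUSG00000027820, chromosome 3, 63241537 to 63386030) encodes neprilysin, an endopeptidase of the brush border and of podocytes that makes angiotensin 1-7 from angiotensin I. It was at 122, 216.3, 233.2 and 208 CPM in the libraries labelled CDH11+/+ and at 187.2, 215.4, 205 and 154.4 CPM in those labelled CDH11-/-. Again the lowest library was CDH11+/+ replicate 1. Mean levels of 194.9 ± 49.7 against 190.5 ± 26.7 CPM (n = 4 each, SD) differed by −0.03 ± 0.20 on the log2 scale (SE, adjusted p = 0.96 in edgeR), with a 95% interval of the fold from 0.708 to 1.35. The sign of so small a value turned to 0.02 with library size alone as the scaling.

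Cltrn, the collectrin gene, whose product serves amino acid transport in the proximal tubule, is not among the 9 genes and did not overlap between labels, at 274.8 to 511.7 CPM against 184 to 248.5 CPM. Its log2 fold change was −0.74 ± 0.19 (SE, adjusted p = 0.138 in edgeR). Without CDH11+/+ replicate 1 it was −0.85 (adjusted p = 0.0386 in edgeR), and DESeq2 gave −0.73 (adjusted p = 0.00164). Whether Cltrn differed from Ace or Mme in response was not tested.

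Of 22 listed angiotensin peptidases, receptors and receptor adaptors outside the 9 members, 16 were tested, 8 with positive and 8 with negative values (median log2 fold change −0.02). In edgeR 0 of the 16 passed over all genes, and 4 had an unadjusted p under 0.05, beside 14.1% of all tested genes. Among the 4 were Cltrn, Agtrap and, named after its values were seen, Prep (log2 fold change 0.14 ± 0.06, SE). Chymases, the mast cell proteases that can make angiotensin II without ACE, were nearly missing. Cma1 had 4 counts over all libraries and Mcpt4 had 0 of 112162716 counts, which allows a level of up to 0.0267 CPM.

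All 16 proximal tubule markers had negative values between labels. Their median was −0.79 on the log2 scale, and 0 of them passed in edgeR, with a smallest adjusted p of 0.0528. At an unadjusted p under 0.05 there were 11 of 16, beside 14.1% of all tested genes. The labels did not overlap in 6 of 16, beside 7.33% of all tested genes. The lowest was Slc22a8 at −2.31 and the highest, Aqp1, stood at −0.14. Agt, Ace, Enpep and Mme had values between −0.30 and 0.05. The part of the tubule markers in these values was not tested, nor was the difference between members and markers.

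**Figure D2:**
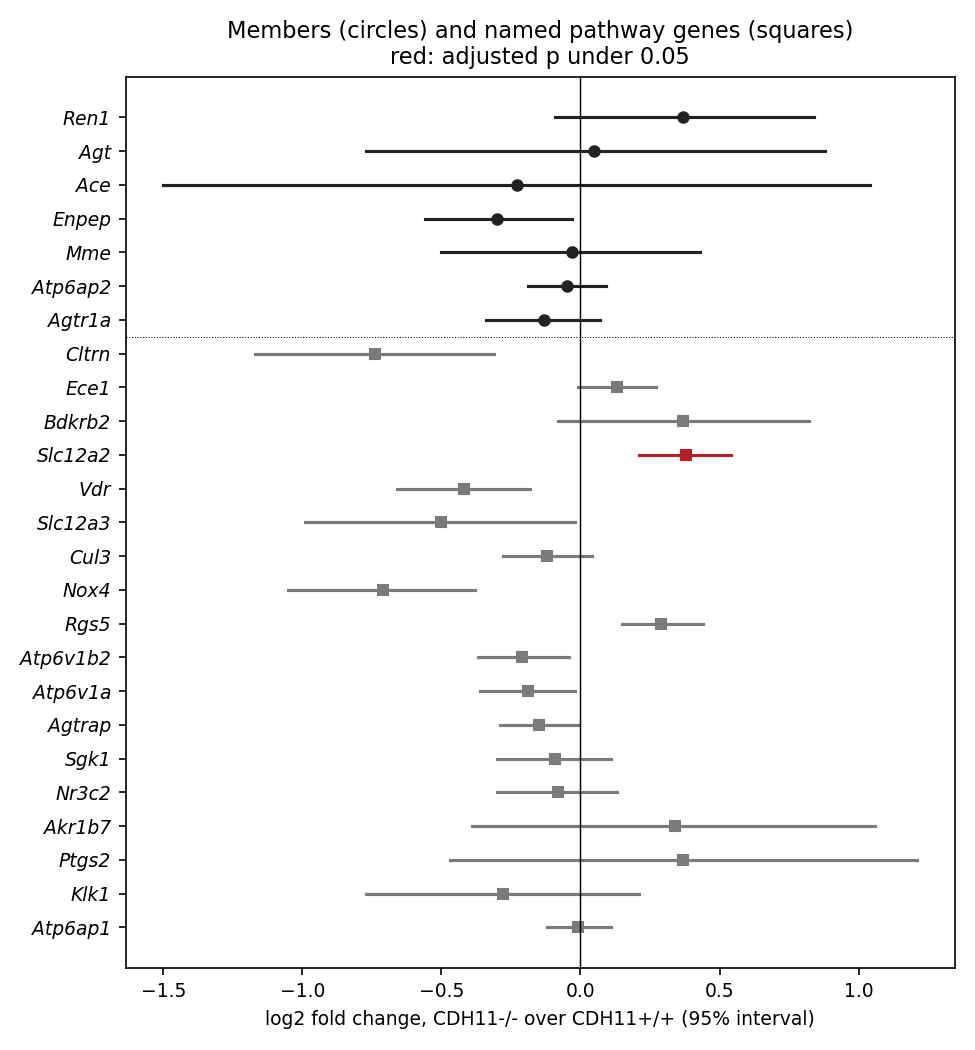
Log2 fold change of the libraries labelled CDH11-/- over those labelled CDH11+/+ (horizontal axis) with its 95% interval from edgeR, for the 7 tested members (circles) and named genes of the wider pathway (squares). Ace has the widest interval of the members, from −1.50 to 1.04, and Slc12a2, in red, is the 1 gene past the threshold.

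Several members varied widely between mice of 1 label. The SD of log2 CPM within a label was 0.83 for Ace, 0.54 for Agt, 0.34 for Mme, 0.33 for Ren1 and 0.21 for Enpep, against a median of 0.13 over 12738 genes with a mean of at least 5 CPM. Of those genes 0.738% had a larger SD than Ace and 1.92% a larger SD than Agt. Agtr1a at 0.12 and Atp6ap2 at 0.09 were below the median. The highest library was 2.74 times the lowest for Agt, 1.91 times for Mme, and 1.2 times for Atp6ap2.

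Agt, Ace, Mme and Enpep varied together. After the mean of each label was subtracted, Pearson's r of log2 CPM over the 8 libraries was 0.86 to 0.97 in the 6 pairs of these genes, and Spearman's rho was 0.64 to 0.90. Leaving out the 2 libraries farthest from the median of the first gene, CDH11+/+ replicate 1 in every such pair and either CDH11-/- replicate 4 or CDH11+/+ replicate 3, gave r of 0.56 to 0.89. The libraries share their depth and scaling, and no p is given. Over the 8 libraries Ren1 followed less closely, with r of 0.54 to 0.58 against the 4 genes. Leaving out its 2 farthest libraries, CDH11-/- replicates 1 and 4, gave r of 0.64 to 0.80, within the range of the 4 genes. Agtr1a had r of −0.66 to −0.28 against the 4 genes, and −0.53 to −0.17 with 2 libraries left out. Atp6ap2 had r of −0.29 to −0.19 against the 4 genes. With 2 libraries left out its r was 0.57 to 0.71 with Agt, Enpep and Mme, within the range of the 4 genes, and −0.36 with Ace.

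The proximal tubule genes Kap, the androgen-regulated kidney protein, and Slc7a13, a transporter of the straight segment, varied alongside these genes over a wider range. Both were picked from the marker list after their values were seen. Kap was at 283.8, 2871.9, 4363.4 and 1789.8 CPM in the libraries labelled CDH11+/+ and at 900.3, 3310.8, 1156.8 and 612.3 CPM in those labelled CDH11-/-. Its r was 0.98 with Ace, 0.97 with Agt, 0.95 with Mme and 0.87 with Enpep, and without the 2 farthest libraries it was 0.94, 0.96, 0.89 and 0.52. Slc7a13 had r of 0.86 with Enpep, or 0.44 without those libraries, and 0.93 to 0.99 with the other 3 genes. Slc34a1, the phosphate carrier of the convoluted segment, picked in the same way, had r of 0.58 with Ace, 0.64 with Agt, 0.73 with Mme and 0.82 with Enpep. Without the 2 farthest libraries these were 0.64, −0.20, −0.22 and 0.36. Alb, the hepatocyte gene, had r of 0.44 with Agt, or 0.53 without the 2 farthest libraries, and 0.25 to 0.31 with Ace, Enpep and Mme. The part of hepatocyte transcripts in the level of Agt was not tested.

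**Figure D3:**
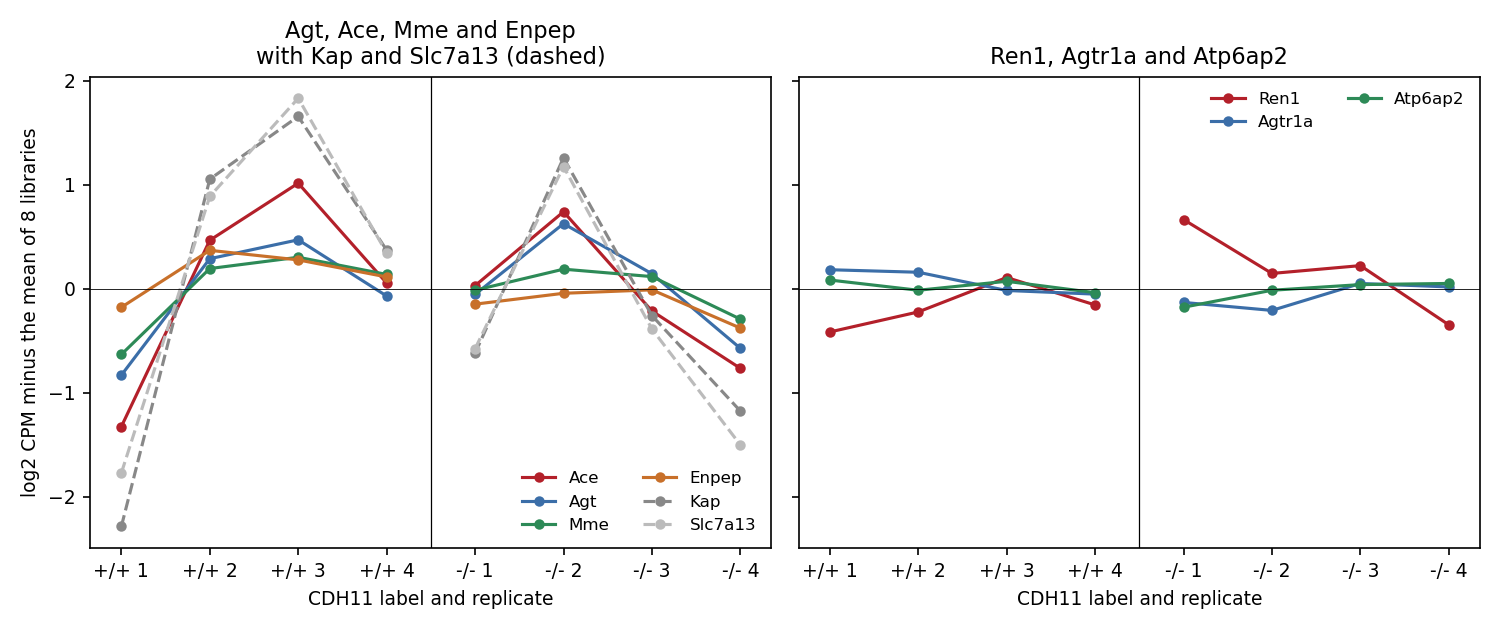
Log2 CPM minus the mean of the 8 libraries (vertical axis) in each library (horizontal axis, with CDH11 label and replicate). Lines only join the points of 1 gene within a label, since replicates have no order. On the left Ace, Agt, Mme and Enpep dip in CDH11+/+ replicate 1 and CDH11-/- replicate 4 and peak in CDH11+/+ replicates 2 and 3 and, but for Enpep, CDH11-/- replicate 2, as do Kap and Slc7a13 (dashed). On the right Agtr1a and Atp6ap2 stay near 0.

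The genes whose pattern was most like that of a member, by r over the 8 libraries after subtracting the label means, were found among 12740 genes. For Ace they were the fructose carrier gene Slc2a5 (0.997) and the aspartic protease gene Napsa (0.996), which ran from 176 to 1184.9 CPM. For Agt they were Aktip (0.998) and Clrn3 (0.996). The closest to Enpep were Myo5b (0.997) and Paics (0.995), and to Mme Mrpl48 (0.995) and Fbxo40 (0.992). Ren1 was followed most closely by Gm2274 (0.986) and Pcyox1 (0.985), Agtr1a by Rbm45 (0.984) and Adgrg6 (0.982), and Atp6ap2 by Zfp626 (0.993) and Rnf115 (0.985). Over 8 libraries and so many genes, values this high are a description of these libraries.

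Agtr1a (ENSMUSG00000049115, chromosome 13, 30336441 to 30382867) encodes the type 1A angiotensin receptor, the main receptor of angiotensin II in mouse kidney. It was at 24, 23.6, 20.9 and 20.4 CPM in the libraries labelled CDH11+/+ and at 19.3, 18.3, 21.9 and 21.4 CPM in those labelled CDH11-/-. The 2 highest libraries were labelled CDH11+/+ and the 2 lowest CDH11-/-, with overlap between them. Mean levels of 22.2 ± 1.86 against 20.2 ± 1.7 CPM (n = 4 each, SD) differed by −0.13 ± 0.09 on the log2 scale (SE, adjusted p = 0.561 in edgeR). The 95% interval of the fold was narrow, from 0.791 to 1.05. The value was negative in all 18 alternatives, from −0.17 to −0.07.

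Agtr1b (ENSMUSG00000054988, chromosome 3, 20314473 to 20367177, minus strand), the second type 1 receptor gene of the mouse, had 0, 1, 0 and 1 counts in the libraries labelled CDH11+/+ and 1, 2, 0 and 0 in the others. The 5 counts in all correspond to 0.0446 CPM, with an exact 95% interval for counting error of 0.0145 to 0.104 CPM. The 2 receptor genes are close copies, so the split of reads between them is uncertain. Agtr2, the type 2 receptor gene, had 3 counts in the libraries labelled CDH11+/+ and 0 of 61535937 in the others, which allows up to 0.0488 CPM. No difference in either gene was detectable at this depth.

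Mas1 (ENSMUSG00000068037, chromosome 17, 12841079 to 12868143, minus strand) encodes the receptor of angiotensin 1-7. It had 4, 9, 11 and 10 counts in replicates 1 to 4 labelled CDH11+/+ and 0, 5, 5 and 1 in those labelled CDH11-/-. In CPM the labels did not overlap, although CDH11+/+ replicate 1 at 0.369 and CDH11-/- replicate 2 at 0.323 were close. In the authors' normalized values the labels overlapped, at 3.24 to 21.6 for CDH11+/+ and 0 to 4.3 for CDH11-/-. The sums of 34 and 11 counts correspond to 0.672 CPM (exact 95% interval for counting error 0.465 to 0.938) and 0.179 CPM (0.0892 to 0.32). Below the filter on low counts, Mas1 had no value in the test itself. Without a filter edgeR gave a log2 fold change of −1.91 (adjusted p = 0.271, unadjusted p = 0.0114) and DESeq2 gave −1.97 (adjusted p = 0.193), so the difference did not pass. Airn, a noncoding gene on the opposite strand, spans Mas1 without sharing annotated exon bases and had 297 counts over all libraries. Whether reads of Airn were counted under Mas1 was not tested.

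Signalling genes downstream of the type 1 receptor showed no common direction. Of 22 tested, 10 were positive and 12 negative, the median log2 fold change was −0.01, and 0 passed in edgeR (6 at an unadjusted p under 0.05, beside 14.1% of all genes). The smallest p belonged to Nox4, the oxidase of tubule cells, at 149.4, 222.3, 130.2 and 168.7 CPM in the libraries labelled CDH11+/+ and 105.2, 95.7, 110.4 and 98.4 CPM in the others. Its groups did not overlap, and the log2 fold change was −0.71 ± 0.15 (SE, adjusted p = 0.0744 in edgeR). Rgs5, a brake on receptor signalling in pericytes and vascular smooth muscle, is also 1 of the 10 vascular smooth muscle and mesangial markers. Rgs5 did not overlap either, at 79.5 to 88.8 CPM against 94.6 to 113.2 CPM. It had a log2 fold change of 0.29 ± 0.07 (SE, adjusted p = 0.0773 in edgeR). Nox4 passed in 4 of 18 alternatives and Rgs5 in 5, without CDH11+/+ replicate 1 among them for each (adjusted p = 0.0471 and 0.0332). Agtrap, which binds the type 1 receptor and draws it into the cell, was at 97.3 to 114.7 CPM against 93.8 to 97.2 CPM. Its log2 fold change was −0.15 ± 0.06 (SE, adjusted p = 0.337 in edgeR).

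The aldosterone arm, which raises sodium uptake in the distal nephron, was covered by a list of 15 genes. Of these 14 were tested, 6 positive and 8 negative (9 positive and 5 negative with library size alone), with a median log2 fold change of −0.03. In edgeR 0 passed, with 1 at an unadjusted p under 0.05, Slc12a3, beside 14.1% of all tested genes. Nr3c2, the mineralocorticoid receptor, was at −0.08 ± 0.10 and Sgk1, its target kinase, at −0.09 ± 0.09 (log2 fold change, SE, adjusted p = 0.752 and 0.714 in edgeR). Slc12a3, the thiazide-sensitive sodium-chloride carrier, was at 807, 1612.3, 1537.3 and 1418.3 CPM and at 1070.6, 1039, 915.3 and 771 CPM (log2 fold change −0.50 ± 0.21, SE, adjusted p = 0.341 in edgeR). It was called lower without CDH11+/+ replicate 1 (−0.67, adjusted p = 0.00616 in edgeR) and with 1 surrogate variable (−0.33, adjusted p = 0.0459). Cul3, the ubiquitin ligase scaffold that controls this carrier's kinases, had −0.12 ± 0.07 (SE, adjusted p = 0.498 in edgeR). Cyp11b2, the aldosterone synthase of the adrenal cortex, had 0 counts in every library.

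Kallikrein and kinin genes, whose products are also cut by ACE and neprilysin, were tested in 7 of 9 cases, 4 positive and 3 negative (median log2 fold change 0.07). In edgeR 0 of the 7 passed, and 0 had an unadjusted p under 0.05, beside 14.1% of all tested genes. Klk1, tissue kallikrein of the distal tubule, was at 1353.4 ± 374.9 and 1116 ± 170.4 CPM (SD, n = 4 each, log2 fold change −0.28 ± 0.21, SE, adjusted p = 0.616 in edgeR). Without CDH11+/+ replicate 1 it was called lower (−0.45, adjusted p = 0.0438 in edgeR), and without CDH11+/+ replicate 3 the value was −0.16. Bdkrb2, the constitutive bradykinin receptor, was at 3.4 ± 0.484 and 4.39 ± 0.959 CPM, while Bdkrb1, the inducible one, had 2 counts in all. Ece1, endothelin-converting enzyme, which also cuts bradykinin, had 0.13 ± 0.07 (log2 fold change, SE, adjusted p = 0.388 in edgeR).

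Atp6ap2 (ENSMUSG00000031007, chromosome X, 12587801 to 12617049) encodes the prorenin receptor, which is also an accessory protein of the vacuolar proton pump. It was at 120, 112.1, 119 and 110.3 CPM in the libraries labelled CDH11+/+ and at 100.1, 112.1, 116.4 and 117.3 CPM in those labelled CDH11-/-. Apart from CDH11-/- replicate 1 the libraries lay within 110.3 to 120 CPM. Mean levels of 115.4 ± 4.87 against 111.5 ± 7.91 CPM (n = 4 each, SD) differed by −0.05 ± 0.07 on the log2 scale (SE, adjusted p = 0.784 in edgeR). Its 95% interval of the fold, 0.875 to 1.07, was the narrowest of the 7.

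The subunits of the same proton pump lay close to Atp6ap2. All 20 tested V-ATPase genes had negative values, from −0.21 to −0.01, with a median log2 fold change of −0.06 beside −0.01 for all genes. The common sign depended on the scaling, since 12 of 20 were negative with library size alone. The median was then −0.01, beside 0.04 for all genes. With DESeq2 size factors 19 of 20 were negative. In edgeR 0 of the 20 passed, and 2 had an unadjusted p under 0.05, beside 14.1% of all tested genes. These 2 were Atp6v1b2 at −0.21 ± 0.07 (adjusted p = 0.244) and Atp6v1a at −0.19 ± 0.08 (adjusted p = 0.304, both log2 fold change, SE, edgeR). Atp6ap1, the other accessory protein, was at 206.6 ± 3.6 and 205.8 ± 6.76 CPM (SD, n = 4 each).

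Over the 6 lists of the wider pathway, 102 of 111 genes were tested, of which 1 rose and 0 fell in edgeR. That is 0.98% of them, near the 0.719% of all genes, and their median log2 fold change was −0.02. At an unadjusted p under 0.05 there were 16 of 102, beside 14.1% of all tested genes.

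**Figure D4:**
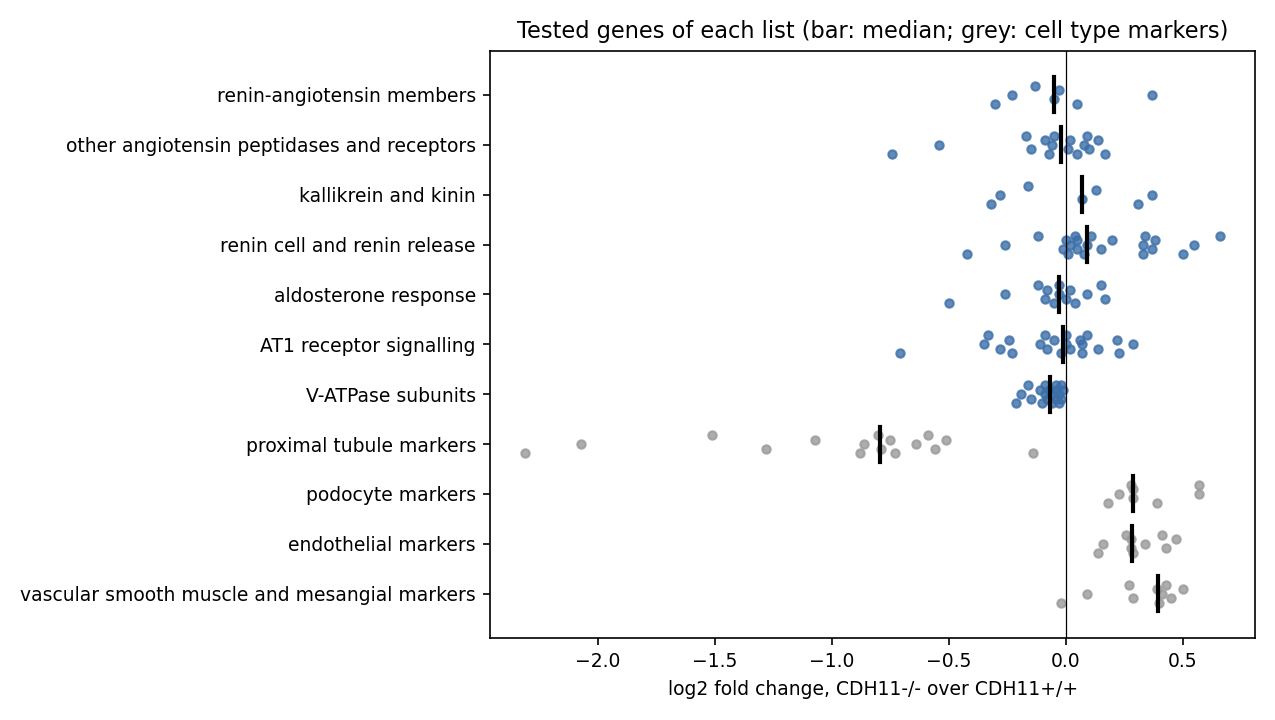
Log2 fold change (horizontal axis) of each tested gene in the 9 members, the 6 wider pathway lists (blue) and 4 lists of cell type markers (grey), with a black bar at the median. The pathway medians lie between −0.06 and 0.09, and those of proximal tubule, podocyte, endothelial and vascular smooth muscle markers at −0.79, 0.29, 0.29 and 0.39.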

How the data were processed

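RNA of 8 kidneys was sequenced, 4 per labelled genotype. The authors deposited raw counts for each Ensembl gene and, besides, a table of normalized signal values, in which each count is divided by a factor that varies by gene and library. DRAGEN, DESeq2 and the build mm10 are listed, per the submitters' processing notes. The sources used here name neither annotation nor counting strand, and the kit was directional per the labels' protocols. There were 0 columns of other samples.

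Names, coordinates and exon lengths came from GENCODE M21 (GRCm38), where 42170 of 42256 identifiers had a name. In each library 0.0484% to 0.058% of the counts fell on the other 86. Upstream sequences came from RefSeq on GRCm38.p6. The test was edgeR 4.0.16 quasi-likelihood (R 4.3.3) with TMM scaling, its low-count filter, robust moderation and no covariate beside the label, with Benjamini-Hochberg adjustment over 15852 genes. Each SE was taken from the fold change and its F statistic. Log2 CPM used a prior count of 2. Counting intervals are exact Poisson, at 95%, and floors are 3 counts, and both cover counting error only. The fits were tested on simulated data.

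The members and lists were chosen with earlier results of these data known. Named genes are the 9 members, in each wider list those past the threshold and the 2 of smallest p, and Agtr2, Cma1, Agtrap, Sgk1, Nr3c2, Akr1b7, Ptgs2, Klk1, Bdkrb1, Bdkrb2 and Atp6ap1, plus the 2 genes most like each member. 1 gene of this rule is not reported here. Of 10 marker lists some are given, and whether a list moved with a member was not tested. The lists of mast cell, macrophage, adrenal cortex and tubule injury markers are left out. All 8 macrophage markers were positive (median log2 fold change 0.12). They summed to 2101.9 CPM in CDH11+/+ replicate 1 and to 1423.6 to 1548.8 CPM in replicates 2 to 4 of that label. Alternatives used DESeq2 1.42.0, limma 3.58.1 (on log2 of the authors' values with a pseudocount of 1, and voom), sva 3.50.0, other scalings and filters, the authors' factors as offsets, and leaving out each library.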

Additional observations from a re-analysis of the deposited data

Results flagged for a closer look

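Among the tested members and the summed marker lists, 34 groups of 4 libraries were examined for a library far from the others, where chance gives about 1 in 20, and 3 were found, none of them a member gene. The 7 hepatocyte markers summed to 533.6 CPM in CDH11-/- replicate 2, the library with the highest Agt. The 8 fibroblast markers summed to 1989.7 CPM in CDH11+/+ replicate 1, where Agt, Ace and Mme were lowest. The 10 vascular smooth muscle and mesangial markers summed to 675.2 CPM in CDH11-/- replicate 2, below the other libraries of its label.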

How the results depend on the processing

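Over 18 alternatives the count of members called stayed at 0 except with 1 surrogate variable (1, Agt at a log2 fold change of 0.29, adjusted p = 0.048, where 4.81% of all genes were called) and without CDH11+/+ replicate 1 (1, Enpep), a range of 0 to 1 when libraries were left out. The count over all genes, 114, was 208 without a filter, 515 with DESeq2, 679 with limma-voom, 54 with limma on the authors' values, 50 with their factors as offsets and 762 with 1 surrogate variable, and 26 to 1004 with a library left out (1004 without CDH11+/+ replicate 1, and 26 to 72 without any other than CDH11+/+ replicate 3). The count of wider pathway genes, 1, was 2, 5, 6, 0, 0 and 7 in the same order and 0 without robust moderation, and 0 to 12 with a library left out. Signs turned for Ace (0.22 with 1 surrogate variable, −0.56 to 0.13 with a library left out), Agt (−0.17 to 0.23 with a library left out), Mme (0.02 with library size alone, 0.13 with 1 surrogate variable, −0.19 to 0.07) and Atp6ap2 (−0.07 to 0.01). They also turned for Agtrap (0.01 with either use of the authors' factors), Cul3 (0.00 with offsets) and Atp6ap1 (0.00 with DESeq2, its size factors or 1 surrogate variable, 0.01 without a filter, 0.04 with library size alone, −0.02 to 0.02 with a library left out). The cause of these shifts was not tested. Of 468 gene results 415 kept their direction and side of the threshold. No paired analysis was possible because the labels give no replicate number shared between genotypes. With 4 mice per label, the 95% interval of the fold ran from 0.354 to 2.06 for Ace and from 0.585 to 1.84 for Agt. Mas1, Agtr1b and Agtr2 had 45, 5 and 3 counts over all libraries. Whether more mice or more depth would change these results was not tested.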

Other observations

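Kng1, a kininogen gene also made by the liver, was at 18.9 CPM in CDH11-/- replicate 2, the library with hepatocyte transcripts, and at 4.24 to 7.67 CPM in the other 7, whereas its neighbour in function, Kng2, was at 241.9 CPM there and at 169.9 to 276.8 CPM elsewhere. Gja4, a connexin of the renal arterioles named after its values were seen, lay at 4.63 to 4.83 CPM in the libraries labelled CDH11+/+ and at 5.3 to 7.76 CPM in those labelled CDH11-/-, without overlap (log2 fold change 0.55 ± 0.16, SE, adjusted p = 0.151 in edgeR). Gja5, the connexin that couples renin cells, overlapped, at 4.24 to 6.96 and 5.44 to 8.33 CPM (log2 fold change 0.11 ± 0.20, SE, adjusted p = 0.846 in edgeR).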
